A study of Mus musculus with 10 samples.

Results

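The regions described here are 9780 islands of H3K27me3 (histone H3 trimethylated on lysine 27) that the authors listed in vehicle-treated MC3T3 cells and for which no island was listed after GSK126. An island is a run of neighbouring windows listed as rich in ChIP reads. The ChIP reads of a listed island need not exceed its input reads: the lowest ratio in the vehicle list was 0.1268. The members were chosen by measured values of the vehicle island list: a ratio of ChIP reads to input reads of 1.2 or more, at least 1 input read, a length below 10 kb, and no base shared with any island of the GSK126 list. Chromosomes 6 and 19 and the sex chromosomes were outside the rule. Of 34498 vehicle islands, 21853 met the limits on ratio, length and chromosome. Of these, 9780 (44.8%) had no GSK126 island and are called lost below, and 12073 shared at least 1 base with a GSK126 island and are called kept.

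MC3T3 is a pre-osteoblast line from mouse calvaria. All cells grew in an osteogenic medium that contained beta glycerol phosphate and ascorbic acid. They received vehicle or GSK126, which blocks the enzyme EZH2, at 5 µM in 2 doses 3 days apart, with withdrawal on day 6. ChIP and input DNA were taken 24 hours after the first dose, with 1 ChIP library and 1 input library per treatment, and each treatment gave 1 RNA library on each of days 3, 6 and 10. A lost island therefore compares single libraries and has no replicate check, and it means that no island was listed at that place with GSK126, not that the mark was absent there. GSK126 reads under the lost islands were not analysed here. The RNA was taken on later days than the ChIP, so the 2 readouts do not share a time point.

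H3K27me3 is written by Polycomb repressive complex 2, whose catalytic subunit is EZH2, and is found over genes that are held silent. In dividing cells the mark is diluted by new histones unless it is rewritten, so that inhibition of EZH2 lowers it gradually. In mesenchymal cells the mark covers many genes of other lineages.

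For 4 genes a transcription start listed by RefSeq lay inside a lost island and the RNA level was higher with GSK126 (the RNA values follow further on). The start table used here held 18 of the 30 linked genes that were higher, so the other 12 could not be placed in this way. For the 4 genes the 250 bases before those starts are shown because they lie whole inside lost islands. They were taken from RefSeq (GRCm38.p6, the assembly of the mm10 build) and run 5′ to 3′ on the strand of the gene, with each CpG dinucleotide in capitals. All 4 genes lie on the minus strand. The Fam81a start at position 70141557 of chromosome 9 lay in the island chr9:70138801-70142200 (39 ChIP and 28 input reads) and followed chr9:70141558-70141807. The Enpp1 start at 24712159 lay in chr10:24708801-24712600 (53 and 39 reads) and followed chr10:24712160-24712409. The Slc2a13 start at 91573261 lay in chr15:91572001-91573800 (29 and 10 reads) and followed chr15:91573262-91573511. The Robo2 start at 74411825 lay in chr16:74409401-74416000 (85 and 39 reads) and followed chr16:74411826-74412075.
Fam81a: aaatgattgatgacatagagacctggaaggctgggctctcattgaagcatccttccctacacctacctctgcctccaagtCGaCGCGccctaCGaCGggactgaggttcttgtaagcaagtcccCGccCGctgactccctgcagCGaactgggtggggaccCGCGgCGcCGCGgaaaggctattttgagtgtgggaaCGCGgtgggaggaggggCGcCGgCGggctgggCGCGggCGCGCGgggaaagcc
Enpp1: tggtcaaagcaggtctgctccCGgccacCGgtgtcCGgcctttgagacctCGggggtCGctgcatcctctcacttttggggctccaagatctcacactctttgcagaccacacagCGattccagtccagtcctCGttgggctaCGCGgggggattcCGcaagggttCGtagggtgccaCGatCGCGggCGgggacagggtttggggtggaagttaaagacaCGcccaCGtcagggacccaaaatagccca
Slc2a13: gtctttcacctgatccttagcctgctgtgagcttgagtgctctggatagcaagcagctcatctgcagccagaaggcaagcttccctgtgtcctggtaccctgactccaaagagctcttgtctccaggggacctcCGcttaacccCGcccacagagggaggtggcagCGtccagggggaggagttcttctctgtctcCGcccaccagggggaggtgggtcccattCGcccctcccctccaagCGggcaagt
Robo2: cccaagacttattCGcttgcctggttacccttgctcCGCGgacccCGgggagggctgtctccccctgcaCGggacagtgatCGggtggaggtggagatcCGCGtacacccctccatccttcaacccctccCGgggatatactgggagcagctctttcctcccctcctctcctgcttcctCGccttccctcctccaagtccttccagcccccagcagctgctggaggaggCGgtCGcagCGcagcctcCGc
The CpG count of these windows was 23 for Fam81a, 17 for Enpp1, 14 for Robo2 and 6 for Slc2a13, and their GC content was 61.2% to 65.6%. Fam81a, Enpp1 and Robo2 thus had CpG-rich starts. Most starts in lost islands did not: the median was 4 CpG over 520 starts, and 122 of them (23.5%) held 10 or more. Starts in kept islands were as poor, with a median of 3 over 683 starts (20.1% with 10 or more), while all 28487 starts on the same chromosomes had a median of 6 (38.4% with 10 or more).

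The lost islands were short and rested on few reads. Their median length was 2800 bp (5th to 95th percentile 1600 to 5800 bp), with a median of 37 ChIP reads (25 to 74) and 22 input reads (9 to 49). Kept islands had a median length of 3600 bp with 49 ChIP and 30 input reads. In all, the lost islands covered 30.82 Mb and the kept islands 49.65 Mb. The ratio of ChIP to input reads, which stands for the strength of the mark relative to input, was close in both sets, with medians of 1.655 in lost and 1.621 in kept islands. The share of islands that were lost fell with the number of vehicle ChIP reads, from 61.7% of 4184 islands with 17 to 30 reads to 7.37% of 1398 islands with over 100. It fell likewise with length, from 53.7% below 2 kb to 9.46% at 8 kb or more. By ratio it went from 43.2% at 1.2 to 1.4 to 52.6% at 3 or more; the highest class of ratio also had the highest share lost. These shares describe how the members were chosen and carry no test.

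**Figure D1:**
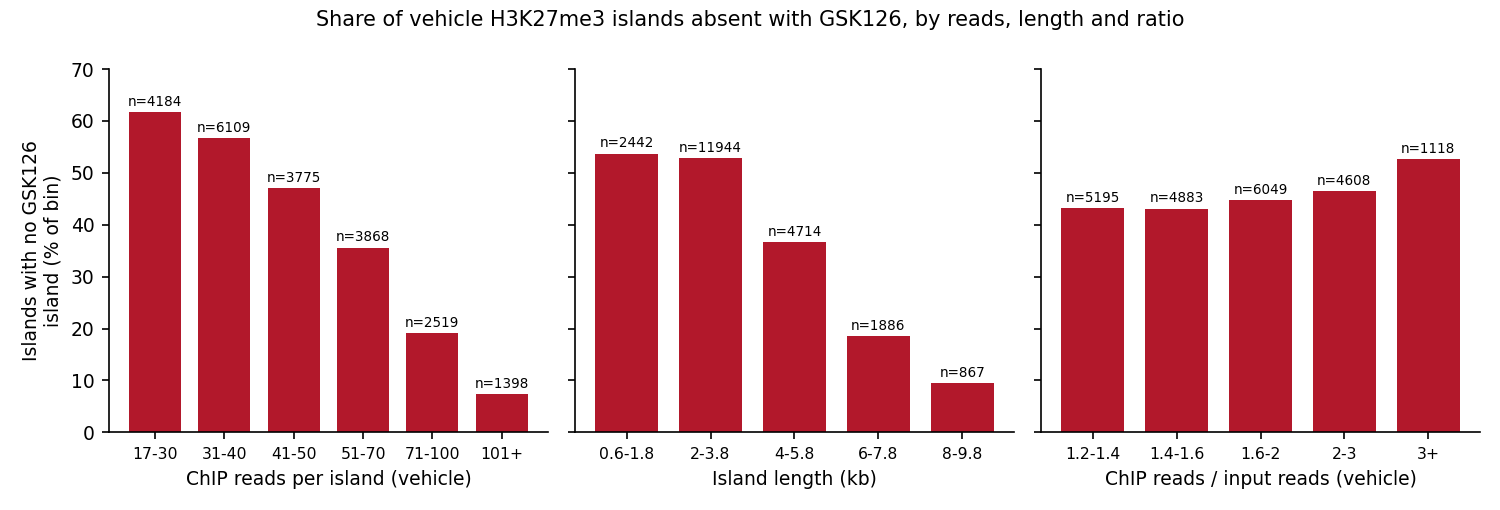
Share of vehicle H3K27me3 islands with no GSK126 island (%, bars) by vehicle ChIP reads per island, island length in kb and ratio of ChIP to input reads, with the number of islands in each bin above its bar. The share falls from 61.7% to 7.37% with reads and from 53.7% to 9.46% with length, and lies between 43.1% and 52.6% over the ratio bins.

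The GSK126 list itself held larger islands, so that many lost islands lie below the size of most of its islands. Its 24947 islands had a median length of 5600 bp and 76 ChIP reads, against 3400 bp and 43 reads for all vehicle islands, and its smallest island had 27 reads, against 17 in the vehicle list. The GSK126 list covered 166.7 Mb in all and the whole vehicle list 147.9 Mb, so the listed area was not smaller with GSK126. Its islands had a median ratio of ChIP to input reads of 1.227, against 1.475 in vehicle. The median input density was 11.94 and 9.286 reads per kb. Among the lost islands, 1018 (10.4%) had fewer vehicle reads than any GSK126 island, and 7417 (75.8%) had fewer than the 48 reads that mark the 5th percentile of the GSK126 list. The same level was missed by 5720 kept islands (47.4%). The part of this difference between the lists in the loss of islands was not tested. A set of 465 lost islands (4.75%) had at least 76 vehicle reads, the median of the GSK126 list.

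Lost islands were spread over all 17 chromosomes in unequal shares. On chromosome 17, 358 of 1371 islands were lost (26.1%), and on chromosome 14, 276 of 344 (80.2%). Chromosomes 13 (74.6%), 7 (71.5%), 9 (68.7%), 18 (64.9%) and 12 (64.5%) were also high, and chromosomes 2 (34.2%), 10 (35.0%) and 4 (36.1%) low. Chromosomes with a low vehicle input density had a high share lost: the median input density of the islands was 6.17 reads per kb on chromosome 14 and 9.72 on chromosome 17. Over the 17 chromosomes the share lost and the median input density had a Pearson r of -0.96 and a Spearman coefficient of -0.94, as a description only, since every point shares the same libraries. Among islands of equal read number (31 to 40 ChIP reads) the share lost ran from 35.9% on chromosome 17 to 86.0% on chromosome 13. Copy number of the chromosomes in this line was not analysed here, and its part in these shares was not tested.

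**Figure D2:**
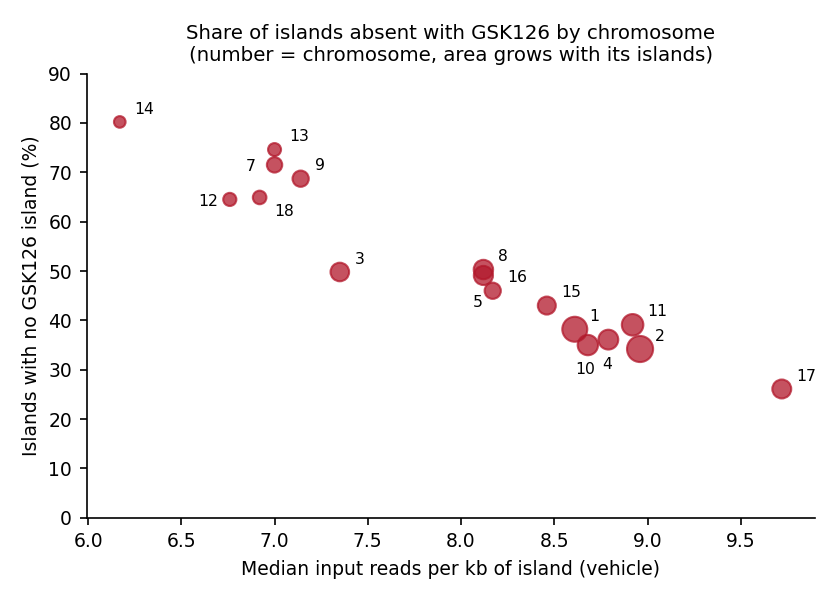
Share of islands with no GSK126 island (%) against the median vehicle input reads per kb of island, 1 point per chromosome, labelled by its number, with an area that grows with its number of islands. Chromosome 14 stands at 80.2% with 6.17 reads per kb and chromosome 17 at 26.1% with 9.72.

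The distance from lost islands to the nearest GSK126 island varied widely. The median was 9.8 kb, 4843 (49.5%) lay more than 10 kb away and 1154 (11.8%) more than 100 kb away. A further 993 (10.2%) had a GSK126 island within 1 kb.

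The lost islands with the highest ratio among those with 10 or more input reads had 4.2 to 4.82 ChIP reads per input read. At the head stood chr1:125629801-125632600 with 53 ChIP and 11 input reads, a ratio of 4.82 (exact 95% interval 2.49 to 10.2, counting error only), which lay 44.4 kb from a start of Gpr39 and 0.4 kb from a GSK126 island. Next came chr9:38704601-38708000 with 48 and 10 reads, 6.22 kb from a start of the olfactory receptor gene Olfr919 and 854 kb from any GSK126 island. The island chr4:122981201-122985200 had 60 and 13 reads and lay 10.7 kb from a start of Mycl, a MYC family transcription factor gene. The island chr14:39361201-39366200 lay in the span of Nrg3, a ligand gene of the ERBB4 receptor, with 51 and 12 reads and no GSK126 island within 2300 kb. By the authors' p-value the best supported lost island was chr7:100191601-100201400, at 9800 bp long also at the length limit, with 179 ChIP and 58 input reads (ratio 3.09, interval 2.28 to 4.23). It was followed by chr3:102906201-102914400 in the span of Sycp1, a gene of the meiotic synaptonemal complex, with 113 and 32 reads. The last 2 islands held more vehicle reads than the median GSK126 island did, whereas the 4 before them held fewer.

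At the limits themselves the members differed little from their neighbours outside. The 5 members nearest the ratio limit had 24 to 84 ChIP reads and a ratio of 1.2, and the 5 nearest islands outside had 49 to 67 ChIP reads and a ratio that also rounds to 1.2. The longest members were 7 islands of 9800 bp with 87 to 179 ChIP reads, and the 5 nearest islands outside were 10000 bp long with 113 to 135. Outside the limits, 2477 further vehicle islands without a GSK126 island had a lower ratio, and 31 were too long.

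Lost and kept islands had similar shares by position, without a test. Of the lost islands 3542 (36.2%) shared a base with a gene span, and of the kept islands 4064 (33.7%). A RefSeq start lay inside 441 of the 9410 lost islands on chromosomes for which starts were at hand (4.69%) and inside 573 kept islands (4.83%), and the median distance to a start was 22.6 and 22.5 kb. The table of starts covered 15011 of the 20062 genes used (74.8%), so these shares are lower bounds and the distances upper bounds. Islands were thus mostly intergenic in both sets. Exons, introns and untranslated regions were not analysed here. Of 843 miRNA hairpins, 8 lay in a lost island, among them Mir375 (chr1:74900658-74900721) and Mir181d (chr8:84178716-84178787), and 11 in a kept island. The RNA libraries counted genes, and no level of a mature miRNA was measured.

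A gene was linked to a lost island when its span in the count table shared at least 1 base with it. This held for 1979 of 20062 genes (9.86%), of which 1217 held 1 lost island and 116 held 5 or more. The linked genes were long, with a median span of 42.0 kb against 15.0 kb for all genes, and 883 of them also held a kept island. Of the genes below 20 kb 4.94% were linked, and of those of 300 kb or more 42.2%.

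These genes were silent or nearly so in vehicle cells. Their median level over the 3 vehicle libraries was 0.006 RPKM (reads scaled by gene length and library size), 637 (32.2%) had a count of 0 in every vehicle library, and 103 (5.20%) reached 1 RPKM. The 907 genes with a kept and no lost island were as low (median 0.0046 RPKM, 6.17% at 1 RPKM or more), while the 16198 genes without any island had a median of 2.60 RPKM, with 57.1% at 1 RPKM or more. Of all 20062 genes 47.5% reached that level. The 280 genes with a listed start in a lost island, among 1438 linked genes with a listed start, had 13 members (4.64%) at 1 RPKM or more. A few linked genes were well expressed, and 11 exceeded 10 RPKM. They were picked out after their values were seen: Gnas, which encodes a stimulatory G protein subunit, stood at 145 RPKM in vehicle and 144 with GSK126, Ccnd3 (cyclin D3) at 34.5 and 37.8, and Enpp2 (autotaxin) at 31.3 and 21.2. None of these 3 passed the test for a difference, and of the 11 only Sorcs2, described further on, did.

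**Figure D3:**
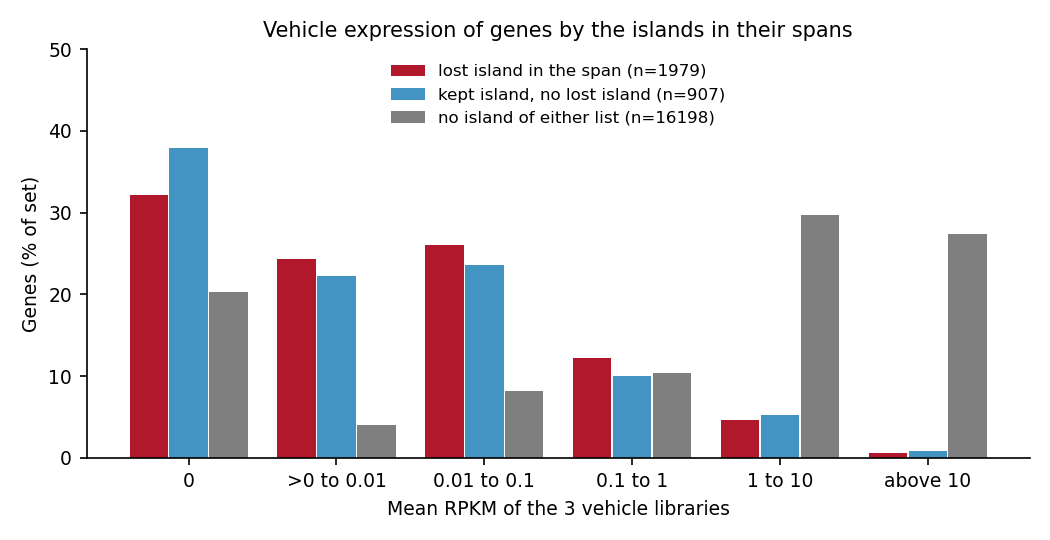
Share of genes (% of each set) by mean RPKM of the 3 vehicle libraries, for genes with a lost island in the span (1979), genes with kept but no lost islands (907) and genes with no island of either list (16198). Both island sets lie mostly below 0.1 RPKM, and 57.1% of genes without an island lie at 1 RPKM or more.

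The 2 groups with the highest share of linked genes were neuronal. Of 73 genes of ion channels and synapses, 34 (46.6%) were linked, with 144 lost islands in 30.7 Mb of span. That is 4.69 islands per Mb, near the 4.23 per Mb over all genes, and the median span of the group was 333 kb. Neural and glial markers had 5 of 8 genes linked and 23.0 islands per Mb, of which Rbfox3 alone, the gene of the neuronal nuclear antigen NeuN, held 17 of the 24. Blood cell markers had 3 of 9 genes linked (12.6 per Mb) and endothelial markers 2 of 7 (5.07). Cadherins had 11 of 35 genes linked (4.60 per Mb), axon guidance genes 11 of 56 (3.24), developmental regulators known as Polycomb targets 11 of 63 (8.22) and cartilage genes 4 of 16 (9.95). Acan, the gene of the cartilage proteoglycan aggrecan, held 7 of the 11 cartilage islands. Hox genes had 2 of 28 linked by lost islands, Hoxc5 and Hoxb1, at 13.4 per Mb, and 5 by kept islands. Among osteoblast genes 1 of 26 was linked, Enpp1, and among the genes of Polycomb repressive complex 2 and the H3K27 demethylases 0 of 10. Olfactory receptor genes, which lie in long silent clusters, had 13 of 1022 linked (1.27%) and vomeronasal receptor genes 2 of 248 (0.806%). These receptor genes are short, with median spans of 0.947 and 1.48 kb, and per Mb of span they held 8.59 and 0.98 lost islands. For olfactory receptor genes the density thus lay above that of all genes (4.23) while the share linked lay below. Kept islands numbered 4.87 per Mb over all genes. They were denser than lost islands in olfactory (15.9) and vomeronasal (6.21) receptor, Hox (60.3) and axon guidance genes (3.63) and blood cell markers (42.0). They were sparser in ion channel and synaptic genes (3.03), neural and glial (4.79) and endothelial (0.0) markers and cadherins (3.32). The same held for developmental regulators (4.62) and cartilage genes (2.71). The shares of the lists are read beside 9.86% over all genes and carry no test.

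Among the linked genes 30 were higher in RNA with GSK126, and no linked gene was called lower by edgeR. Of the 1979 linked genes 698 had enough counts to be tested. By edgeR's quasi-likelihood test with day and treatment as terms (Benjamini-Hochberg adjusted p below 0.05), 30 of the 698 (4.30%) were higher, against 1.01% of all 14344 genes tested. None was lower by edgeR, against 0.272% of all genes, a share so low that 0 among 698 says little about the set. At an unadjusted p below 0.05, 187 (26.8%) were higher, against 9.86% of all genes, and 29 (4.15%) were lower, against 9.75%. Of the 253 tested genes with a kept and no lost island 10 were higher (3.95%) and 0 lower, with 54 and 14 at unadjusted p. The 0 among these 253 says as little. Whether the lost and kept sets differ was not tested. The tests rest on 3 pairs of libraries, and nothing in the labels says that these came from separate cultures, so the p-values cover only the spread between them. Without day 3 the linked genes had 33 calls higher and 4 lower, without day 6 they had 9 and 0, and without day 10 they had 2 and 0. With no term for day there were 0, and DESeq2 called 124 higher and 14 lower.

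The median log2 difference of the 698 genes was 0.27, and 473 (67.8%) were above 0, while the median of all genes tested was -0.0008, with 49.8% above 0. By day the median was 0.43 on day 3, 0.34 on day 6 and 0.08 on day 10, after withdrawal of the inhibitor on day 6. The 253 tested genes with a kept and no lost island had a median of 0.12, with 64.0% above 0. Their medians by day fell in the same order, at 0.27, 0.18 and 0.03. A total of 17 of the 698 passed the filter on low counts through the GSK126 libraries alone, so they had to differ, and 2 of these, Frzb and Snap91, are among the 30. The 17 had every vehicle library below the level of the filter. Others of the 30, among them Ostn, Gpr141, Odf3l1, Cd200r4, Srgap1, Slc36a2 and Rab11fip4, had 1 or 2 vehicle libraries above it. These could not have passed on the vehicle libraries alone, so their entry also leaned on the GSK126 counts. Without the filter, by summed counts over all 1979 linked genes, 966 (48.8%) had more counts with GSK126 and 482 (24.4%) had fewer, against 36.3% and 42.0% of all genes. In the 907 genes with a kept and no lost island these shares were 40.6% and 25.5%. The medians within classes of expression are given as a description. Among genes with mean log2 CPM (counts scaled to the library's size) from -1 to 1 the median was 0.31 in linked genes and -0.01 in genes without an island, and from 1 to 3 it was 0.26 and -0.03. Above 3 the medians were 0.08 and -0.01. In genes with kept but no lost islands the medians were 0.19, -0.02 and -0.04 in these classes. Below -1, the class with 318 of the 698 linked genes and 119 of the 253 kept-only genes, the medians were 0.32 and 0.28, and 0.01 in genes without an island.

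**Figure D4:**
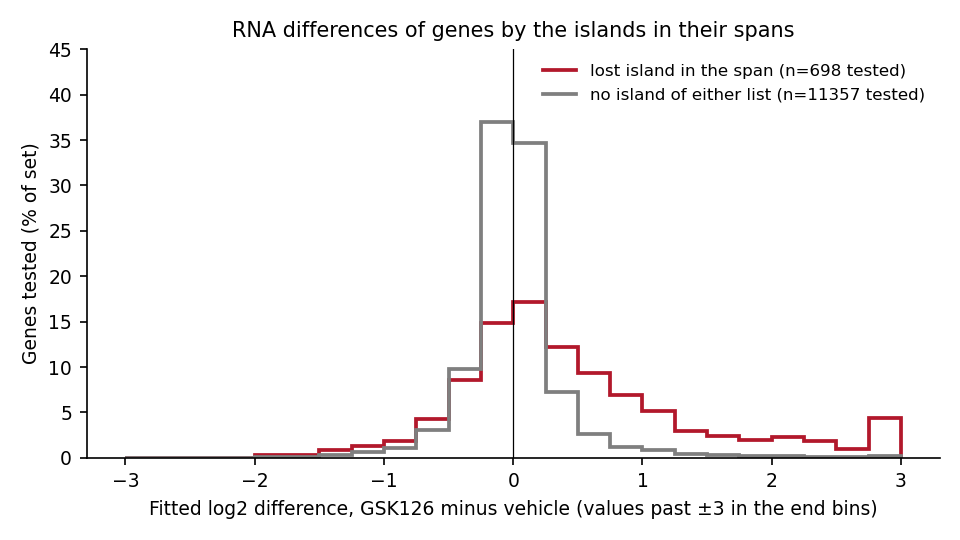
Distribution of fitted log2 differences, GSK126 minus vehicle, in bins of 0.25 (% of genes tested), for 698 genes with a lost island and 11357 genes with no island of either list, with values past the axis in the end bins. The linked genes have a larger share at the right end, with 4.44% at 2.75 or more against 0.194%. They also have a larger share in the bin that starts at -1.25, with 1.29% against 0.599%. Of the linked genes 318 had a mean log2 CPM below -1, against 1098 of the genes with no island. A total of 17 linked genes passed the filter on low counts through the GSK126 libraries alone.

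The differences showed no steady order by the number of lost islands. The median log2 difference was 0.23 over 392 tested genes with 1 lost island, 0.35 with 2, 0.33 with 3 or 4, and 0.14 with 5 or more, where 3 of 50 were higher. Of 503 tested linked genes with a listed start, 75 had it in a lost island, and 4 of these were higher and 0 lower, with a median of 0.35. Of the 30 higher genes, 9 held no GSK126 island in their span and 15 also held a kept island. Among genes with lost islands and no GSK126 island in the span, 9 of 274 were higher (3.28%, median 0.20), and among those that still held a GSK126 island, 21 of 424 (4.95%, median 0.33). These counts of higher genes are read beside 4.30% of all tested linked genes and 1.01% of all genes tested. Over all genes 0.272% were lower, so 0 lower among the 75 says nothing about these genes. Whether any of these groups differ was not tested.

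Among the 4 genes with a listed start in a lost island, Robo2 and Enpp1 have known roles in signalling and in bone. Robo2, a receptor for SLIT guidance ligands, had 3230, 5232 and 3948 counts in vehicle on days 3, 6 and 10, and 7094, 12512 and 8982 with GSK126. Every GSK126 library stood above every vehicle library. The log2 difference was 1.23 (SE 0.07, n = 3 pairs, adjusted p by edgeR = 0.00875), and its 519 kb span held no kept and no GSK126 island. The nearest GSK126 island was 296 kb from its lost island. Enpp1, the ectoenzyme that makes the mineralization inhibitor pyrophosphate, had 20, 42 and 38 counts in the vehicle libraries and 106, 238 and 114 with GSK126, with no overlap. Enpp1 was thus higher by a log2 difference of 2.19 (SE 0.30, adjusted p by edgeR = 0.0434), and held 3 lost islands and 1 kept island. This call ended whichever day was left out, with adjusted p by edgeR of 0.0784 without day 3, 0.209 without day 6 and 0.105 without day 10. Fam81a, whose product is a coiled-coil protein, had 18, 22 and 22 against 154, 240 and 308 counts, a log2 difference of 3.49 (SE 0.26, adjusted p by edgeR = 0.0152). Its 2 lost islands lay 97.6 and 103 kb from the nearest GSK126 island. Slc2a13, a proton-coupled myo-inositol transporter gene, had 134, 210 and 164 against 356, 846 and 660 counts (log2 difference 1.85, SE 0.19), and its lost island at the start lay 0.6 kb from a GSK126 island.

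Other higher genes encode secreted or matrix proteins or act on Wnt signalling, a grouping made here for reading only. Frzb, a secreted antagonist of Wnt ligands, had 0, 2 and 4 counts in the vehicle libraries and 20, 230 and 134 with GSK126. The groups do not overlap. Frzb passed the filter on low counts through the GSK126 libraries alone, so it had to differ, and its fitted log2 difference of 5.93 (SE 0.52, adjusted p by edgeR = 0.0212) is no independent support. Its lost island (chr2:80418601-80421200, 32 ChIP and 25 input reads) lay 26.2 kb from the start and 3.4 kb from a GSK126 island. Rnf43, an E3 ligase that removes Wnt receptors from the membrane, had 1318, 1764 and 1860 counts in the vehicle libraries and 3216, 3116 and 3586 with GSK126, again without overlap (log2 difference 1.05, SE 0.11). Its single lost island (chr11:87701201-87702600, 24 ChIP and 7 input reads) lay 1.3 kb from a start. Abi3bp, an extracellular matrix protein gene, held 5 lost islands and went from 250, 690 and 1208 to 1750, 5092 and 5158 counts (log2 difference 2.62, SE 0.18). Ostn, the gene of the secreted peptide osteocrin, held 2 lost islands at 18.8 and 23.0 kb from a GSK126 island and had 0, 12 and 0 against 20, 4126 and 912 counts. It passed the filter on low counts only with the help of the GSK126 libraries. Ostn and Abi3bp were the 2 genes still called when day 10 was left out, both with an edgeR adjusted p of 0.0184. Itih5, a hyaluronan-binding inter-alpha-trypsin inhibitor family gene, and Tcn2, the vitamin B12 carrier transcobalamin, were higher by 2.75 and 1.1 on the log2 scale.

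Further higher genes encode transporters, receptors, kinases and regulators of diverse kinds. Slc8a3, a sodium-calcium exchanger gene with 2 lost islands at 69.6 and 77.0 kb from the nearest GSK126 island, had 116, 442 and 870 counts in the vehicle libraries and 624, 6052 and 8798 with GSK126. The day 3 GSK126 library lay below the day 10 vehicle library, so the groups overlap unless they are compared within a day (log2 difference 3.27, SE 0.27, adjusted p by edgeR = 0.0197). Slc36a2, a proton-coupled amino acid transporter gene, had 2, 28 and 262 against 40, 880 and 5436 counts, with the same kind of overlap between days. Camk4, a calcium and calmodulin dependent kinase gene, held 10 lost islands, the most of the 30, and had 490, 406 and 346 against 1150, 1044 and 614 counts (log2 difference 1.18, SE 0.15, adjusted p by edgeR = 0.0381). Srgap1, a GTPase activating protein that acts downstream of SLIT and ROBO, had 6, 12 and 14 against 46, 212 and 342 counts. Sorcs2, a sortilin family receptor gene, was the best expressed of the 30 at 12.1 RPKM in vehicle, and had 5368, 12430 and 9032 against 12066, 29370 and 14722 counts (log2 difference 1.07, SE 0.12). Plag1, a zinc finger transcription factor gene, had 492, 338 and 234 against 1588, 1430 and 840 counts without overlap.

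The remaining higher genes were Gpr141, Iqgap2, Snap91, Odf3l1, Cd200r4, Pdzd2, Tmem56 (now Tlcd4), Rab11fip4, Tpd52, Zdhhc2, Mtus2, Sncaip, Sgk3 and Hecw2, with log2 differences from 1.08 to 6.81. All 30 exceeded a 2-fold difference and 21 a 4-fold difference. In 21 of the 30 every GSK126 count was above every vehicle count, and the difference was largest on day 6 in 21, on day 10 in 6 and on day 3 in 3. The 30 were chosen by a test on these same counts, so the separation is no added support. The share of all tested genes with such a separation was not analysed here. By vehicle level, 12 of them lay below 0.1 RPKM and 5 at 1 RPKM or more. Their 65 lost islands lay more than 10 kb from a GSK126 island in 28 cases and within 1 kb in 7. When a single day was left out, 2 of the 30, Ostn and Abi3bp, were called whichever day it was. Another 8 (Camk4, Enpp1, Hecw2, Iqgap2, Snap91, Sorcs2, Tcn2 and Zdhhc2) lost the call each time. Ostn, Gpr141, Frzb and Snap91 had 0 to 12 counts in the vehicle libraries and 10 to 20 in the day 3 GSK126 library. Their calls rest on few counts there, and these genes were not tested when every count was halved.

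**Figure D5:**
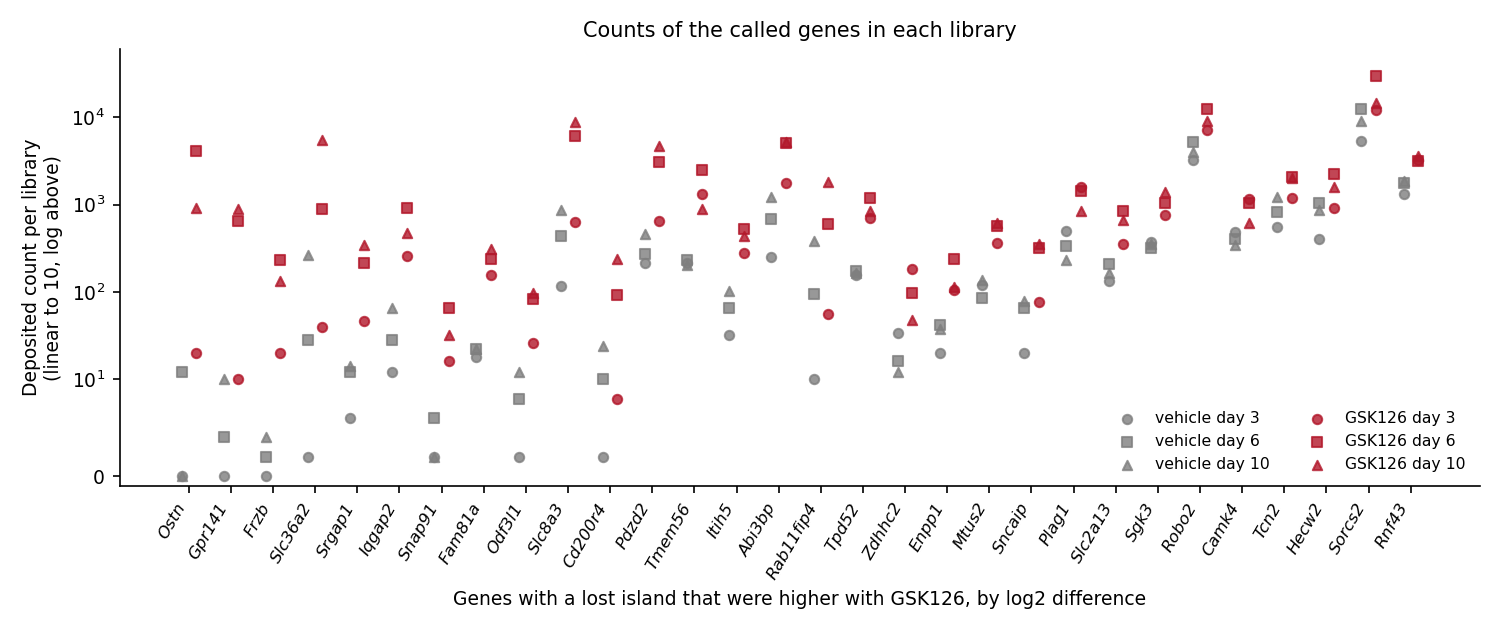
Deposited counts (vertical axis, linear to 10 and logarithmic above) of the 30 genes with a lost island that were higher with GSK126, ordered by log2 difference, with vehicle in grey and GSK126 in red and a marker shape per day. Within each day the GSK126 point lies above the vehicle point, and in 21 genes all GSK126 points lie above all vehicle points. The genes were chosen by a test on these same counts, so the separation is no added support.

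Cartilage and Wnt genes held further linked genes that did not all pass the test. Col9a1, the alpha 1 chain of cartilage collagen IX, had 12, 10 and 6 counts in the vehicle libraries and 70, 760 and 362 with GSK126. The groups do not overlap, yet its log2 difference of 5.06 (SE 0.74) had an edgeR adjusted p of 0.0504. The adjusted p was 0.0133 without day 3, 0.201 without day 6 and 0.198 without day 10. It held 2 lost and 2 kept islands. Matn1, the gene of cartilage matrilin 1 with a start in a lost island, had 0, 16 and 22 against 18, 142 and 34 counts (adjusted p by edgeR = 0.191), and Acan, with 7 lost islands, had 0 counts in all 6 libraries. Of the 8 linked genes of Wnt signalling 6 were tested, and Frzb and Rnf43 were higher. This is read beside 4.30% of all tested linked genes and 1.01% of all genes tested, and carries no test. Frzb passed the filter on low counts through the GSK126 libraries alone, so it had to differ. The Wnt list held 4.06 lost islands per Mb of span, against 4.23 over all genes, and 9.75 kept islands per Mb. Lgr5, a receptor for R-spondins, had 14, 8 and 10 against 28, 78 and 44 counts (adjusted p by edgeR = 0.114). Dkk2, an antagonist that binds the LRP co-receptors, had 664, 1006 and 1166 against 540, 436 and 322 counts, the reverse order, with a log2 difference of -1.08 (SE 0.30, adjusted p by edgeR = 0.137).

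Dkk2 was among the 5 largest negative differences in linked genes whose mean log2 CPM was 1 or more, none of which passed the edgeR test. The others were 5430419D17Rik (now Cdcp3) at -1.78 (SE 0.49), Gm221 (now Ccdc170) at -1.05 (SE 0.24), Rnf220 at -0.78 (SE 0.49) and Egfr, the epidermal growth factor receptor, at -0.61 (SE 0.20). For 5430419D17Rik the edgeR adjusted p was 0.137, and 0.0278, 0.461 and 0.374 without day 3, 6 and 10. Rnf220, an E3 ubiquitin ligase gene with 11 lost islands, had 4818, 20318 and 3476 counts in the vehicle libraries and 4672, 3876 and 3250 with GSK126. Its difference rests on the day 6 vehicle library, and the other libraries lie within 3250 to 4818.

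The genes with most lost islands were long, mostly silent and not called. Dlgap2, a postsynaptic scaffold gene of 752 kb, held 19 lost islands and had 0 counts in the vehicle libraries and 2, 2 and 0 with GSK126. Rbfox3 held 17 and had 0, 2 and 0 against 4, 2 and 0 counts. Fam38b (now Piezo2, a mechanically gated channel gene) and Slit3, a guidance ligand gene, held 16 each, Fstl4 held 15, Megf11 held 13, and Hydin and Stxbp5l held 12 each. Of these 8 genes 3 were tested, with log2 differences of -0.15 (SE 0.41) for Fstl4, 0.14 (SE 0.26) for Megf11 and 0.78 (SE 0.44) for Stxbp5l. The other 5 had too few counts to be tested. Of 13 tested genes of ion channels and synapses with a lost island 0 were higher and 0 lower by edgeR, with a median of 0.03. Over all genes 1.01% were higher and 0.272% lower, so a count of 0 among 13 says nothing about the group. The best expressed was Cacna1a, a calcium channel subunit gene with 5 lost islands, at 1848, 1422 and 3110 against 1502, 1438 and 2504 counts. Cdh23, a cadherin of hair cells, held 11 lost islands and had 44, 50 and 82 against 24, 54 and 64 counts. Of 4 tested cadherins 0 were called, nor were the axon guidance ligand genes Sema6a (log2 difference 0.67, SE 0.27) and Sema3d (1.18, SE 0.38) or Nog, a secreted BMP antagonist gene (0.43, SE 0.36). Of the 3 tested developmental regulators, Pax6, Gata6 and Tbx4, 0 were called, and Pax6, the eye and pancreas regulator, had 920, 1198 and 1448 against 930, 1024 and 1150 counts.

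Facts of the whole series that bear on these values are few. RNA libraries held 97291878 to 111537936 counts, each of which was even. Ezh2 itself, on chromosome 6, had 8200, 4784 and 5004 counts in the vehicle libraries and 8520, 3854 and 7136 with GSK126, a log2 difference of 0.12 (SE 0.16, adjusted p by edgeR = 0.738), and the inhibitor acts on the enzyme rather than on its RNA. All 7 osteoblast markers were expressed at a mean of 4.57 to 4960 RPKM in vehicle. Of 26 markers of other cell types 1 reached 1 RPKM, the adipocyte factor gene Cebpa (3.39 RPKM). The summed neural and glial markers lay at 0.00696 to 0.0249 RPKM in vehicle and 0.0484 to 0.0599 with GSK126. Most of the GSK126 sum came from Snap25 alone, at 0.0373 to 0.0409 RPKM, so the sum shows no rise shared by the class. Gfap dropped on days 3 and 10, and Elavl4 kept the same count on every day. Rbfox3 and Sox10 never exceeded 4 counts in any library. Among linked genes on the lists of other cell types, Adipoq, Myh2, Tek, Kdr, Ptprc, Itgam, Cd3e, Gfap, Krt18 and Rbfox3 had 0 to 6 counts in every library. Mtap2 (now Map2), a neuronal microtubule protein gene, had 932, 632 and 500 against 1086, 434 and 382 counts, and Snap25, a synaptic fusion protein gene, had 0, 4 and 0 against 12, 10 and 10. Neither passed the test.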

How the data were processed

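RNA was measured in 6 libraries and H3K27me3 in 2 ChIP and 2 input libraries of MC3T3 cells. The submitters' processing notes name mm10, TopHat2 2.0.6, HTSeq 0.5.3p9, BWA 0.5.9, CASAVA 1.9 and SICER 1.1. For SICER's window, gap and threshold and for the annotation release, the setting is "not given in the sources used here". Per library, the deposited gene table gives raw counts and RPKM, per the file headers, and the RPKM values were used only to describe levels. The deposited island lists give ChIP reads and input reads per island as counts, and the authors' p-value, fold and adjusted p-value. The authors' fold equals the ratio of ChIP to input reads times a constant of 1.68 in vehicle and 1.664 with GSK126. Island lengths are multiples of 200 bp, and coordinates are 1-based on mm10. The number of per-sample columns that could not be mapped was 0.

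Islands were compared by overlap of at least 1 base and gene spans were taken from the count table. Of 20292 genes on the 17 chromosomes, 230 were left out because their span was over 2 times that in RefSeq or, unmatched, over 1 Mb, a limit set after seeing the data, and 19762 of the 20062 used matched RefSeq by name. The RefSeq start table used here covered 15011 of these genes and none on chromosome 18. RNA was tested on all 14344 genes that passed edgeR's filter with edgeR 4.0.16 (R 4.3.3, TMM scaling, quasi-likelihood test, terms for day and treatment, Benjamini-Hochberg adjusted p below 0.05), which leaves 2 residual degrees of freedom. The SE of a log2 difference is the size of that difference divided by the square root of the test's F statistic. It thus includes edgeR's pooling of spread over genes and rests on 3 pairs of libraries. DESeq2 1.42.0 was an alternative, and other steps used Python 3.11.15, pandas 2.3.3 and scipy 1.17.1. Scripts were tested on simulated data. Ratio intervals are exact binomial at 95% and cover counting error only. The members and gene lists were chosen with earlier results of these data known. Genes are named by rule: called linked genes, the 5 largest differences in each direction at mean log2 CPM of 1 or more with 1 sign on all days, the 8 with most lost islands, list members, and Ezh2. Islands are named by highest ratio with 10 or more input reads, by smallest p-value and by nearness to the limits. The kit does not mark strand, so reads of overlapping antisense genes cannot be told apart.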

Additional observations from a re-analysis of the deposited data

How the results depend on the processing

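The number of lost islands lay between 6539 and 11860 under the 5 alternatives on ratio, length, p-value and overlap, against 9780, and was 2087 when 50 or more ChIP reads were asked for, an alternative added after seeing the data. Lost islands in a gene span numbered 3542, and 2352 at a ratio of 1.5 or more and 812 at 50 or more ChIP reads, where fewer islands enter. Of linked genes 30 were higher, 12 at 50 or more reads, 124 by DESeq2, 0 with no term for day, and from 2 to 33 when 1 day was left out. Linked genes lower by edgeR numbered 0, and 14 by DESeq2 and from 0 to 4 when 1 day was left out. Over all genes DESeq2 called 1318 against 184 by edgeR, 258 were called with no filter, 0 with no term for day, and 308, 19 and 4 without day 3, 6 and 10. The cause was not tested. The other alternatives gave 21 to 43 higher and 0 lower genes, and the median log2 difference stayed between 0.19 and 0.39. Of the 33 genes called without day 3, 22 were among the 30, and all 9 called without day 6 were. The term for day pairs the vehicle and GSK126 libraries of a day, and the labels carry no replicate numbers for a further block. Each island set rests on single ChIP libraries, and islands with few reads limit what absence means.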
